A study of Vitis vinifera and Vitis riparia and Vitis amurensis with 189 samples.

Results

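Gene expression in buds of wild and cultivated grapevines was compared at the end of forcing, when budburst had been seen. The comparison used 12 of the 189 libraries of the series, 6 wild and 6 cultivated, chosen by genotype and by the last sampled day. The wild libraries came from Vitis amurensis (genotype PI588635) after 10 days and from Vitis riparia (PI588275) after 12 days at room temperature. The cultivated ones came from Vitis vinifera Cabernet Sauvignon after 17 days and Vitis vinifera Riesling after 15 days. Each genotype had replicates 1 to 3. Dormant buds of the same genotypes on day 0, also replicates 1 to 3, served to ask which differences were already there before forcing.

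Dormant canes were pruned in the vineyard. Day 0 buds were frozen straight from the cane, and the later ones after forcing on single-node cuttings in water. Libraries were made from total RNA of buds, in which fewer cells of a type and less RNA per cell cannot be told apart. The wild vines were clonal plants of a germplasm repository, per the labels, and the cultivars grew in a commercial vineyard. Each wild species is therefore 1 genotype from 1 site. Wild or cultivated status runs together with species and growing site, and it also runs with the number of days at room temperature. It further runs with distance from V. vinifera, whose annotation form (Vitvi) the gene identifiers have. These cannot be told apart here. The sides were matched by the end of forcing, not by day. The labels do not say whether replicate buds came from separate vines, so p-values measure the spread between libraries.

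Grapevine buds pass the winter closed and hardened against frost. In warmth they lose this hardiness, swell and break, as preformed leaf and flower primordia begin to grow. Wild species of cold climates are known for breaking bud after less warmth than cultivars of V. vinifera. The count tables pair no identifier with a gene name, and none of the 42394 identifiers matched the gene table available, so genes are given by identifier only. Pathways were not formed, and the labelled tissue was not checked against marker genes.

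The 12 last-day libraries held 1718825 to 21262793 counts in genes. A floor of 3 counts corresponded to 0.142 to 1.77 normalized counts (CPM, counts relative to the normalized library total). The share of records outside annotated genes, here the no-feature share, exceeded 25% in 3 of the 6 wild and in 4 of the 6 cultivated libraries and was between 9.56% and 37.98% in all. It averaged 22.8 ± 9.76% in wild and 24.1 ± 11.4% in cultivated libraries (SD, n = 6 each). Records with several alignments made up 10.4 ± 1.53% of wild and 8.92 ± 1.37% of cultivated libraries (SD, n = 6 each). No difference between wild and cultivated libraries in these shares, in the ambiguous share, in total counts, in genes detected or in the share of the 10 most abundant genes passed an exact two-sided permutation test (adjusted p from 0.623 to 0.968 over 6 measures). Thinned to 1718825 counts, 20387 to 21783 genes were detected in wild and 20838 to 21858 in cultivated libraries. Each of the 12 libraries carried mostly the markers of its labelled genotype rather than those of the sister genotype, at 84.6% to 99.1% of marker counts. On days 5, 8 and 11 the cultivar libraries went against their labels, since all 21 carried mostly markers of the other cultivar. They enter nothing below other than the common scaling of CPM. Cabernet Sauvignon day 6 replicates 1 and 4 had only 55.6% and 55.1% of marker counts from their own cultivar. Of these, replicate 1 is plotted in the time courses. The day 0 and day 1 libraries defined the markers, so their labels were not checked this way.

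At the end of forcing, expression of 4669 of 20952 genes (22.3%) differed between wild and cultivated buds. Of these, 2566 genes (12.2% of those tested) were higher and 2103 were lower in wild buds. A gene was called when edgeR's quasi-likelihood test gave an adjusted p under 0.05 for the mean of both wild genotypes minus the mean of both cultivars. The median size of a called difference was 1.25 on the log2 scale in either direction. At least a 2-fold difference was reached by 2927 of the called genes, a 4-fold one by 1307 and a 16-fold one by 431. Over all genes tested, the median absolute difference was 0.387.

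Within the 5 last-day libraries of at most 25% no-feature share 1189 genes were called, and within the 7 above it 1513. The first set holds 2 libraries of V. amurensis and 1 each of V. riparia, Cabernet Sauvignon and Riesling, and the second holds 1 of V. amurensis and 2 of each of the others, so a lone library is assumed there to vary like the other groups. Adding this share to the fit of all 24 libraries gave 4803 last-day calls. Of the 4669 main calls, 4567 were called again in the same direction and 0 in the opposite one. In the set of at most 25%, 4648 of the 4649 main calls tested kept their sign, and in the set above it 4622 of 4653. Both sets are part of the same last-day libraries, so this is partly built in. Why fewer genes were called in these sets was not tested.

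The differences were spread over expression levels, with the genes split into 4 sets of 5238 by their mean. In the set of lowest level (up to 4.96 CPM) 28.0% were called, with a median absolute log2 difference of 2.25 among those called. In the set of highest level (from 50.3 CPM) 17.3% were called, with a median of 0.72. More genes were higher than lower in wild buds in each of the lower 3 sets (790 against 679, 735 against 518 and 620 against 423), and fewer in the highest set (421 against 483). This balance varied with the fit. Over all levels 55.0% of called genes were higher in wild buds. The share was 51.1% with the 12 last-day libraries fitted alone and 57.1% without V. riparia day 12 replicate 3. Grouped by the 2-digit number in the identifier, between 17.6% (Vitvi06g) and 28.9% (Vitvi00g) of genes were called. Near silence in 1 class was counted with a fixed limit of 3 counts per library. This limit is stricter in deeper libraries (0.142 to 1.77 CPM). In 10 of the 20952 genes tested no cultivated library had more than 3 counts while each wild species averaged at least 5 CPM. In 13 genes no wild library had more than 3 counts while each cultivar averaged at least 5 CPM. By the same criteria 3 and 2 of these genes already stood out at day 0.

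The error of this test is the spread among libraries and not among genotypes, of which there are 2 per class. With 2 genotypes against 2, an exact permutation test over genotypes cannot go below p = 0.333. Each pair of genotypes was therefore tested as well. Against Cabernet Sauvignon, 3724 genes (17.8%) were called in V. amurensis and 3413 (16.3%) in V. riparia. Against Riesling, it was 4528 (21.6%) in V. amurensis and 3672 (17.5%) in V. riparia. The wild species differed from each other in 5263 genes (25.1%), more than the wild and cultivated means did, whereas the cultivars differed from each other in 670 (3.20%).

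**Figure D1:**
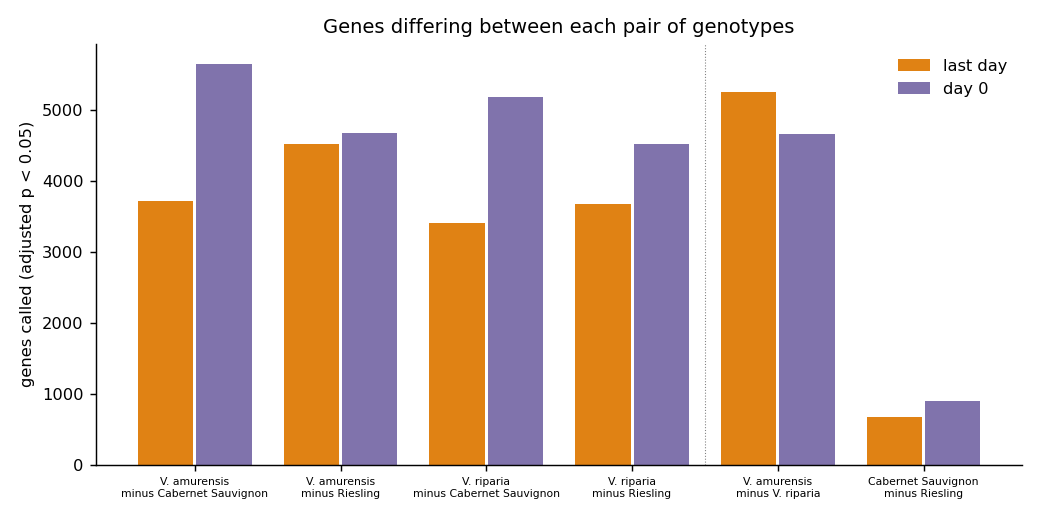
Number of genes called (edgeR adjusted p under 0.05, vertical axis) for each pair of genotypes on the last day (orange) and on day 0 (purple), with 3 libraries per genotype and day. The pairs left of the dotted line set a wild genotype against a cultivar. The wild species stood 5263 genes apart on the last day, and the cultivars 670.

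In 3864 of the 4669 called genes (82.8%) the log2 differences of all 4 wild-cultivated genotype pairs had the sign of the class difference. The class difference is the mean of these 4, so this agreement is partly built in. A smaller set of 635 genes was called in all 4 pairs in 1 direction, which is 3.03% of genes tested, with 347 higher (1.66%) and 288 lower (1.37%) in wild buds. A different pattern was shown by 1092 called genes, for which both pairs with V. amurensis and neither pair with V. riparia passed. The converse, with both V. riparia pairs and neither V. amurensis pair, was met by 811. In 362 called genes no single pair passed. The CPM values of the 6 wild and 6 cultivated libraries did not overlap in 632 genes with wild above (3.02% of genes tested) and in 726 with wild below (3.47%). Of these, 612 and 641 were among the called genes.

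The day 0 libraries show which of these differences were present in dormant buds. There, 6333 genes (30.2%) differed between wild and cultivated, 3030 of them higher (14.5%) and 3303 lower (15.8%) in wild buds. The median absolute difference over all genes was 0.516, against 0.387 on the last day. Day 0 libraries were shallower, with 1301500 to 12323633 counts. With all 24 libraries thinned to the same total, 2271 genes were called on the last day and 4174 on day 0. Of the 6333 genes that differed in dormant buds, 4425 (69.9%) were not called at the end of forcing, 1476 (23.3%) were called again in the same direction and 432 (6.82%) in the opposite direction. Among the 4425, the change from day 0 to the last day differed between the classes against the day 0 difference in 2204 genes.

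Seen from the last day, 1476 of the 4669 differences (31.6%) also stood at day 0 in the same direction. They divide into 815 genes higher and 661 lower in wild buds. Another 2761 genes (59.1%) were not called at day 0. The change over forcing itself was tested by the interaction of class and day, which covered 3865 genes (18.4%), with the wild change above the cultivated one in 2218 (10.6%) and below it in 1647 (7.86%). A factor on a gene's counts that is the same on both days, such as a fixed share of reads lost against the annotation, cancels in this term. A factor that differs between the days does not. The no-feature share ran from 9.86% to 21.1% at day 0 and from 9.56% to 37.98% on the last day. Of the 2761 genes, 783 passed it in the direction of the last-day difference, 489 higher and 294 lower in wild buds. The other 1978 were called on the last day only, with neither a day 0 difference nor a different change called. Neither in these nor in the 783 does absence of a call at day 0 show that the classes were alike. Without V. riparia day 12 replicate 1, the deepest library, the 783 became 517 and the 432 reversals became 281.

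**Figure D2:**
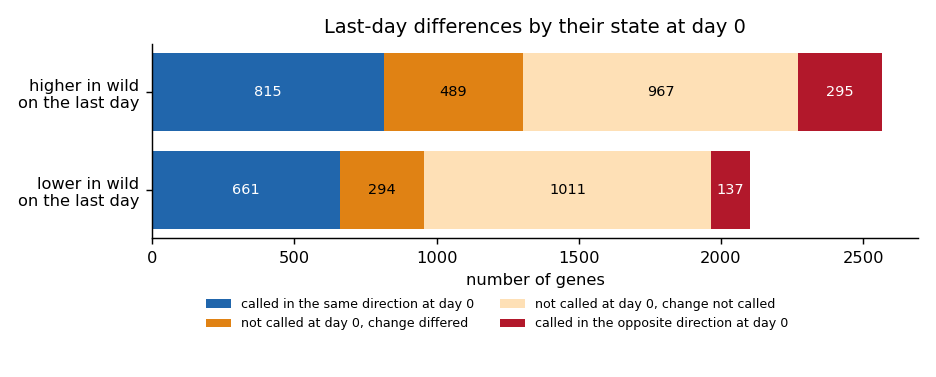
Number of last-day differences (horizontal axis, genes) that were higher or lower in wild buds, split by whether the gene was called at day 0 and whether the change from day 0 differed between the classes. The blue parts, 815 and 661 genes, also stood at day 0 in the same direction, and the red parts, 295 and 137, stood in the opposite direction.

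Across the 20952 genes, the last-day and day 0 differences correlated at r = 0.47 (Pearson). The 2 days share no library, but they share the genotypes, the annotation and the fit. Genes are not independent replicates and no p is given. The scatter of both differences shows a diagonal band of genes that kept a large difference through forcing and a vertical band near 0 on day 0.

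**Figure D3:**
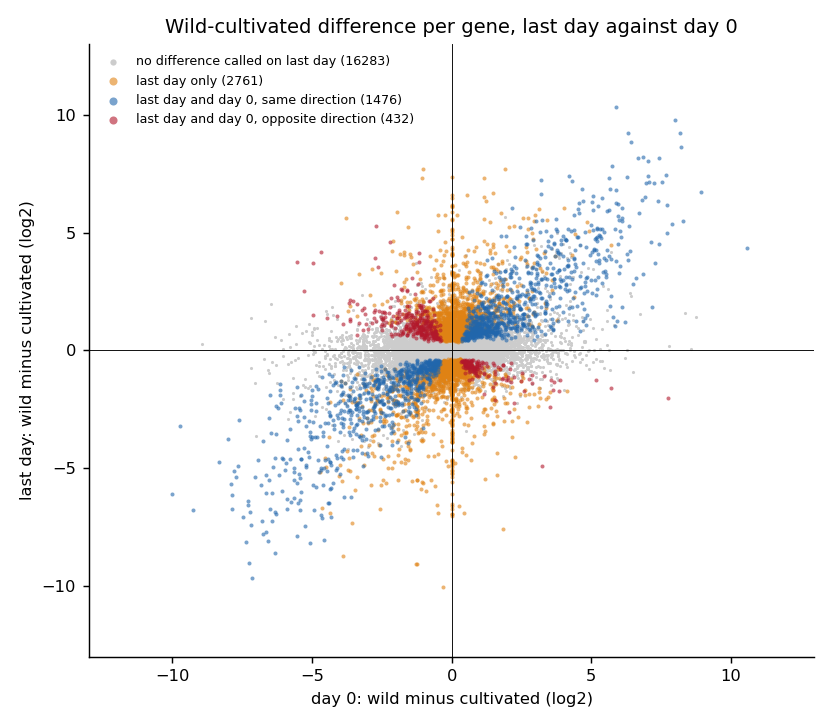
Wild minus cultivated log2 difference of each of 20952 genes on the last day (vertical axis) against day 0 (horizontal axis), from 3 libraries per genotype and day. Blue genes (1476) were called on both days in the same direction, red genes (432) in opposite directions, orange genes (2761) on the last day only, and grey genes were not called on the last day.

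Most genes changed over forcing in both classes, and the last-day differences were counted within these groups. Over the forcing period 14418 genes (68.8%) changed in wild buds, of which 8021 rose (38.3%) and 6397 fell (30.5%). In cultivated buds 15508 genes (74.0%) changed, of which 8486 rose (40.5%) and 7022 fell (33.5%). Over all genes tested, 22.3% differed on the last day, 2566 higher and 2103 lower in wild buds. Among the 5357 genes that fell in both classes, 19.8% differed, and 790 ended higher and 272 lower in wild buds. Among the 6689 genes that rose in both classes, 20.5% differed, and 608 ended higher and 762 lower in wild buds. Of the 296 genes that moved in opposite directions 133 (44.9%) differed on the last day. Of the 3368 genes that changed in neither class 629 (18.7%) did. These groups were formed with the same last-day libraries as the difference counted in them, so the counts are a description only.

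The 783 genes whose difference arose over forcing were sorted in the same way. At day 0 their differences leaned the other way without being called. The median day 0 log2 difference was -0.32 in those that ended higher in wild buds and 0.31 in those that ended lower. Their median last-day differences were 1.14 and -0.81. Requiring a called change favours genes with such an opposite lean. Of the 489 that ended higher in wild buds, 217 fell in both classes, 107 fell in the cultivars alone, 80 rose in the wild species alone, 56 rose in both and 28 rose in wild while falling in cultivated buds. Of the 294 that ended lower in wild buds, 94 rose in the cultivars alone, 91 rose in both, 55 fell in the wild species alone, 36 fell in both and 17 fell in wild while rising in cultivated buds. Alone means here that the other class did not pass the test. In each direction 1 further gene was called in neither class. These sets rest on the same last-day libraries as the difference itself and describe how it came about in them.

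Libraries taken on the sampling day before the last were not used above and gave the same measure a second time. They comprise V. amurensis day 9, V. riparia day 11, Cabernet Sauvignon day 16 and Riesling day 14, with 3 libraries each. V. amurensis day 9 replicate 1 held only 373129 counts. Without it 2650 genes were called in place of 2272, each over all genes fitted. In them 2226 of 19367 genes were called (11.5%), 1218 higher (6.29%) and 1008 lower (5.20%) in wild buds. Of the last-day differences tested there, 1881 of 4316 (43.6%) were called again in the same direction, and 98.4% had the same sign. The 783 arising differences were called again in 250 of 749 cases (33.4%), and 97.6% had the same sign. Those called in all 4 genotype pairs on the last day were called again in 530 of 599 cases (88.5%). Across genes the class differences of the 2 days correlated at r = 0.92, from separate libraries of the same genotypes, over 19367 genes.

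Matching by day in place of the end of forcing gave another picture. Day 9 is the latest day with 3 libraries of each genotype, and it shares no library with the last day. Some of its libraries were shallow. V. amurensis replicate 1 held 373129 counts, Riesling replicates 1 and 2 held 864678 and 790198, and Cabernet Sauvignon replicate 1 held 1107138. How far this depth lowered the number of calls was not tested. On day 9, 5257 of 19576 genes differed (26.9%), 2806 higher (14.3%) and 2451 lower (12.5%) in wild buds. With the replicate number as a block, 8654 differed (44.2%), 4874 higher (24.9%) and 3780 lower (19.3%) in wild buds. Replicate 2 of day 9 had the highest no-feature share in each genotype, 29.8% to 38.3% against 9.75% to 14.6% in the other replicates. The block therefore runs with this share, and whether the numbers also mark a pairing was not tested. Of the last-day differences tested there, 1390 of 4301 (32.3%) were called in the same direction and 361 in the opposite one, or 1770 and 720 with the block. The sign was the same in 63.6%. For differences that stood at day 0 and whose change was not called, 685 of 1228 (55.8%) were called on day 9 in the same direction and 24 in the opposite one, or 812 and 58 with the block. Of the 1228, 85.7% had the same sign as on the last day. For those that arose over forcing, 103 of 759 (13.6%) were called in the same and 87 in the opposite direction, or 171 and 190 with the block. Their signs were the same as on the last day in 46.5%. On day 9 the median log2 difference of the arising genes that ended higher in wild buds was -0.17, and of those that ended lower it was 0.014, against 0.072 over all genes tested.

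Examples of both kinds were chosen by rule, the strongest in each direction of a difference standing since day 0 and of a difference that arose. All 4 genes were called in each wild-cultivated pair, averaged at least 5 CPM in each genotype and did not overlap between the classes on the last day. In all, 92 genes met these criteria in 1 of the 2 kinds. As the rule used the last-day libraries, the non-overlap is no further result. The plot of the 4 genes by library gives their values on both days.

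Vitvi06g01786 was higher in wild buds on both days. On the last day it stood at 38.9, 39.6 and 40.8 CPM in V. amurensis and at 33.9, 33.2 and 30.9 CPM in V. riparia. It stood at 10.7, 9.64 and 8.98 CPM in Cabernet Sauvignon and at 6.93, 8.80 and 7.92 CPM in Riesling. The rule required the classes not to overlap and favoured a wide gap, so neither is a further result. The class difference was 2.07 ± 0.179 on the log2 scale (SE, edgeR adjusted p = 1.88e-08). On day 0 the gene averaged 56.6 ± 17.3 CPM in wild and 16.1 ± 2.44 CPM in cultivated buds (SD, n = 6 each), a log2 difference of 1.84 ± 0.179 (SE, edgeR adjusted p = 6.21e-08). It fell over forcing in both classes, with a log2 change of -0.79 in wild buds (edgeR adjusted p = 2.78e-04) and of -1.02 in cultivated buds (edgeR adjusted p = 2.08e-05). Whether these changes differed did not pass (edgeR adjusted p = 0.587, log2 difference 0.23 ± 0.246, SE). On day 9 the difference was 1.46 ± 0.268 (SE, edgeR adjusted p = 0.00169) and on the day before the last 2.23 ± 0.167 (SE, edgeR adjusted p = 5.60e-06).

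Vitvi07g01493 was lower in wild buds. Its last-day values were 44.4, 7.68 and 27.5 CPM in V. amurensis and 17.8, 46.9 and 3.49 CPM in V. riparia. They were 163, 124 and 107 CPM in Cabernet Sauvignon and 210, 102 and 116 CPM in Riesling. The wild values ranged over more than an order of magnitude. That they lay below every cultivated value was required by the rule. The log2 difference was -2.39 ± 0.494 (SE, edgeR adjusted p = 0.00108). The wild values moved with the no-feature share. Wild libraries above 25% had 7.68, 17.8 and 3.49 CPM and those at or below it had 44.4, 27.5 and 46.9 CPM. Cultivated libraries above 25% had 163, 107, 210 and 116 CPM, and those at or below it had 124 and 102 CPM. Within the libraries above 25% the log2 difference was -3.94 (edgeR adjusted p = 0.00262), and within those of at most 25% it was -1.42 and did not pass (edgeR adjusted p = 0.209).

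At day 0 Vitvi07g01493 averaged 65.3 ± 46.4 CPM in wild and 167 ± 65.4 CPM in cultivated buds (SD, n = 6 each), and the libraries overlapped. The log2 difference of -1.36 ± 0.485 (SE) passed narrowly with edgeR (adjusted p = 0.0366). It did not pass with DESeq2 (adjusted p = 0.0549), with all day 0 replicates in edgeR (adjusted p = 0.0563), or without any 1 of 8 day 0 libraries, so its standing at day 0 is uncertain. On day 9, in other libraries, it was -2.94 ± 0.514 (SE, edgeR adjusted p = 0.00125).

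Vitvi06g01144 overlapped between wild and cultivated libraries at day 0 and was higher in wild buds at the end. The last-day values were 38.8, 34.3 and 25.6 CPM in V. amurensis and 37.3, 24.3 and 30.6 CPM in V. riparia. In Cabernet Sauvignon they were 5.21, 7.02 and 14.6 CPM and in Riesling 11.3, 8.29 and 8.55 CPM. The lowest wild library stood above the highest cultivated one, as the rule required. The log2 difference was 1.83 ± 0.218 (SE, edgeR adjusted p = 1.88e-06). On day 0 it averaged 69.3 ± 11.4 CPM in wild and 64.8 ± 12.4 CPM in cultivated buds (SD, n = 6 each), a log2 difference of 0.13 ± 0.207 (SE, edgeR adjusted p = 0.712). The gene fell in both classes, with a log2 change of -1.27 in wild and of -2.97 in cultivated buds. The changes differed by 1.70 ± 0.299 (SE, edgeR adjusted p = 3.38e-04). One sampling day earlier, the difference was 1.35 ± 0.266 (SE, edgeR adjusted p = 0.00468), and on day 9 it was 0.11 ± 0.422 and did not pass (SE, edgeR adjusted p = 0.887). In between, V. riparia averaged 131 ± 9.2 CPM on day 6 and 28.6 ± 10.5 CPM on day 10 (SD, n = 3 each).

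Vitvi03g00352 was nearly uncounted at day 0, appeared during forcing and was lower in wild buds at the end. On day 0 it had 0 counts in all 6 cultivated and in 4 wild libraries, and 1 and 2 counts in the other wild libraries, so no fold is given for that day. Last-day values were 8.35, 5.32 and 7.13 CPM in V. amurensis and 4.98, 10.6 and 7.52 CPM in V. riparia. Cabernet Sauvignon had 29.8, 34.6 and 16.2 CPM and Riesling had 19.1, 20.1 and 20.8 CPM. Every cultivated library exceeded every wild one, as the rule required, and the log2 class difference was -1.61 ± 0.288 (SE, edgeR adjusted p = 4.22e-04). That its change over forcing differed between the classes (edgeR adjusted p = 0.0306) depended on single day 0 libraries. The call was lost without V. amurensis day 0 replicate 2 or without V. riparia day 0 replicate 1, which hold the only day 0 counts, and also after thinning (edgeR adjusted p = 0.9999 each). It was further lost without Cabernet Sauvignon day 0 replicate 3 (edgeR adjusted p = 0.055).

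On day 9, Vitvi03g00352 was higher in wild buds, from few counts. It averaged 5.61 ± 5.82 CPM in wild and 0.446 ± 0.567 CPM in cultivated buds (SD, n = 6 each), a log2 difference of 2.68 ± 0.787 (SE, edgeR adjusted p = 0.023). The replicate block gave 2.81 ± 0.677 (SE, edgeR adjusted p = 0.00401). The highest wild value, 16.5 CPM, came from 6 counts in V. amurensis replicate 1, a library of 373129 counts, and without it the wild mean was 3.44 ± 2.65 CPM (SD, n = 5) and the log2 difference 2.32 (edgeR adjusted p = 0.034). Without Cabernet Sauvignon replicate 3 the cultivated mean was 0.252 ± 0.347 CPM (SD, n = 5) and the log2 difference 3.25 (edgeR adjusted p = 0.0219). Without Riesling replicate 3 the log2 difference was 5.004 (edgeR adjusted p = 0.0397). The call was lost without V. riparia replicate 3 (edgeR adjusted p = 0.0655) or Cabernet Sauvignon replicate 2 (edgeR adjusted p = 0.052). In the cultivars it then averaged 7.61 ± 3.6 CPM in Cabernet Sauvignon and 4.1 ± 2.64 CPM in Riesling on day 12, and 16.8 ± 3.41 and 14.3 ± 3.96 CPM in them on day 14 (SD, n = 3 each). On the day before the last, V. riparia and V. amurensis libraries ran from 1.85 to 27.9 CPM and the cultivated ones from 10.7 to 34.1 CPM, and the difference did not pass (log2 -0.91 ± 0.539, SE, edgeR adjusted p = 0.314). Where the no-feature share was 25% or less the last-day difference was -1.51 and did not pass (edgeR adjusted p = 0.132), and above 25% it was -1.89 (edgeR adjusted p = 0.0271).

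**Figure D4:**
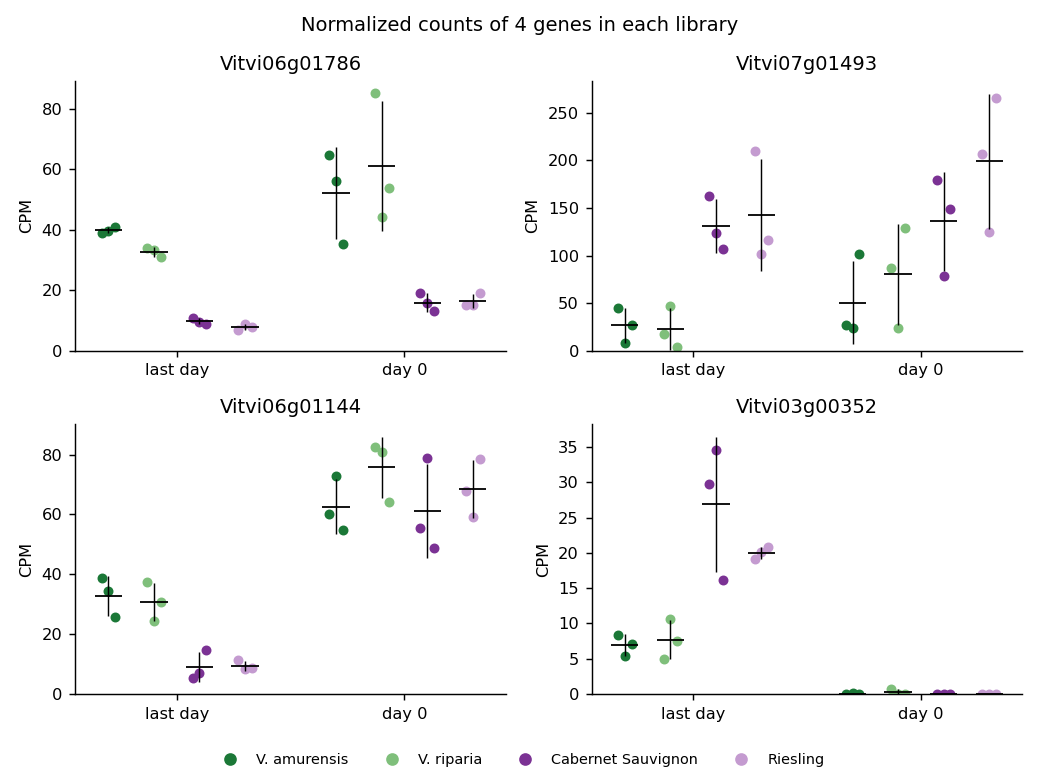
Normalized counts (CPM, vertical axes from 0) of 4 genes in each library on the last day (left) and day 0 (right) of each panel, with 3 libraries per genotype as points, the mean as a horizontal line and ± 1 SD as a vertical line that stops at 0. Vitvi06g01786 is higher in both wild species on both days, whereas Vitvi06g01144 separates the classes on the last day but averages 69.3 and 64.8 CPM in wild and cultivated buds on day 0.

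The time courses place the last day of each genotype within its own series. The mean of Vitvi06g01786 was higher in each wild species than in either cultivar on every day plotted for both. On day 4 V. riparia replicate 2 stood at 14.7 CPM, within the range of the cultivars. That value is at the floor, with 3 counts in a library of 168521. On day 7, the wild means of Vitvi07g01493 were 76.1 ± 44.5 CPM (V. amurensis) and 54.5 ± 34.3 CPM (V. riparia), and the cultivated means 266 ± 126 CPM (Cabernet Sauvignon) and 241 ± 52.7 CPM (Riesling; SD, n = 3 each). The classes were not apart on every day. On day 1 the gene stood at 26.4, 33.0 and 317 CPM in V. riparia, a mean of 125 ± 166 CPM, against 135 ± 21.5 CPM in Cabernet Sauvignon and 117 ± 18.7 CPM in Riesling (SD, n = 3 each). Vitvi03g00352 stood at 6.93 ± 1.53 CPM in V. amurensis and 5.56 ± 2.21 CPM in V. riparia on day 10 (SD, n = 3 each). Riesling then averaged 1.47 ± 2.11 CPM (SD, n = 3), and the 2 Cabernet Sauvignon libraries had 0 and 0.831 CPM.

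**Figure D5:**
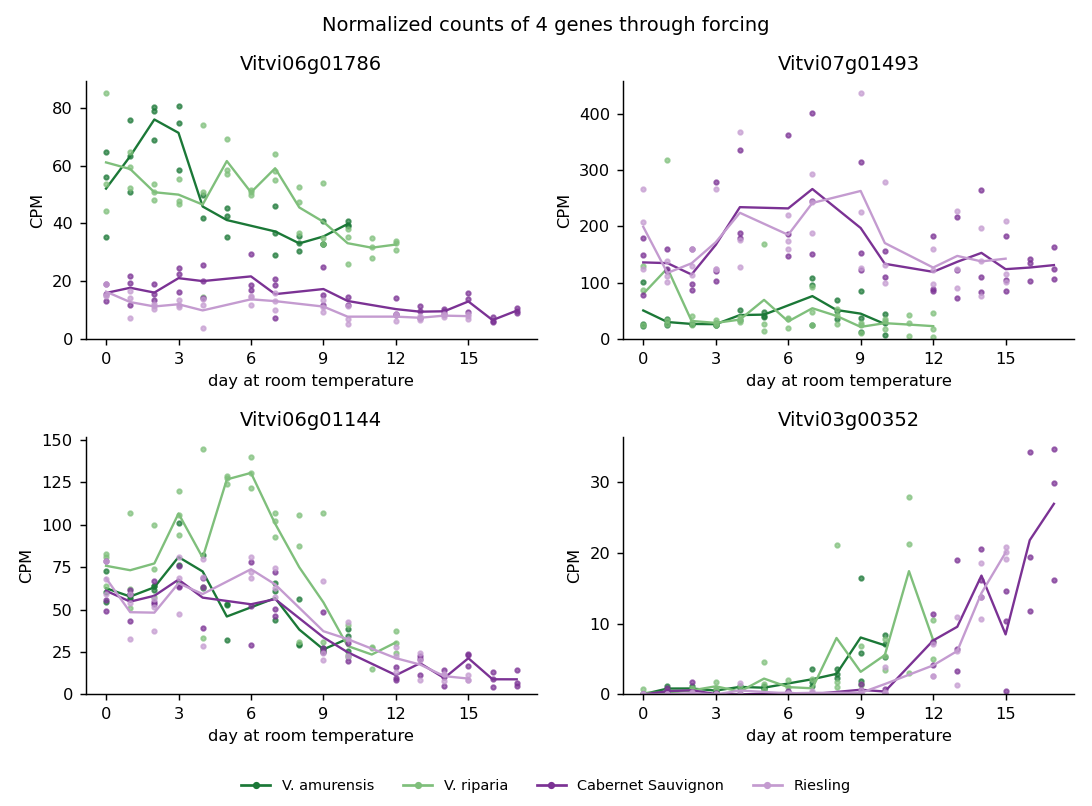
Normalized counts (CPM, vertical axes from 0) of 4 genes against day at room temperature, with a point for each library of replicates 1 to 3 and a line through the means of each genotype. Cultivar libraries of days 5, 8 and 11 are left out, and each line ends at its genotype's last day (V. amurensis 10, V. riparia 12, Cabernet Sauvignon 17, Riesling 15). The highest mean of Vitvi03g00352 over the days is 26.9 CPM in Cabernet Sauvignon and 20.002 CPM in Riesling, both on the last day, and 17.4 CPM in V. riparia on day 11, where single libraries reach 27.9 and 21.3 CPM.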

How the data were processed

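The deposited files hold whole-number counts per gene for each library, with 5 bookkeeping rows that were left out of totals and tests. Cutadapt, STAR, HTSeq and DESeq2 are named in the submitters' processing notes. Genome build and annotation are not given in the sources used here, and how reads of paralogs or overlapping genes were split is not known. Groups came from the labels, and wild or cultivated status from the series' design text and species.

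Last-day and day 0 libraries (24 in 8 groups of genotype and day) were fitted together with edgeR 4.0.16 in R 4.3.3 by the quasi-likelihood test, with TMM normalization and edgeR's expression filter, and p-values were adjusted by Benjamini-Hochberg over 20952 genes. The day before the last and day 9 were fitted separately with 12 libraries each. V. amurensis day 9 is in both. Standard errors came from the F statistic. CPM values use TMM factors over all 189 libraries. Library measures were compared by exact permutation in Python 3.11.15 with SciPy 1.17.1.

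Pairs of replicates of the groups used correlated at r = 0.84 to 0.99 across genes (log2 of CPM plus 1), and none differed as little as sampling noise (chi-square per gene at least 8.92). Deviations of same-numbered libraries correlated at 0.301 to 0.561 in all 12 wild-cultivated pairs on day 9. The replicate number was therefore also fitted as a block there. On that day the number runs with the no-feature share, and whether it marks a pairing is not known. The numbers did not pass this check on the last day (-0.411 to 0.615) or day 0 (0.065 to 0.364).

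On simulated counts for the last-day difference over 20952 genes, 54 of 100 genes changed 2-fold and 96 of 100 changed 4-fold were recovered, with 6 other calls. For the difference in change it was 14 and 75, with 2 other calls. Apart from the planted changes, each simulated gene had the same mean in all groups. Its spread followed the trend over expression level, and only genes above a minimum mean count were changed. The real genotypes differ further, so these figures need not hold for the real libraries. How often a difference between genotypes of the same class is called as a class difference was not tested.

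Named genes met these criteria: called on the last day and in each of the 4 wild-cultivated pairs, no overlap between classes, at least 5 CPM on average in each genotype, and the largest smallest-pair difference of its kind and direction. The rule, the comparisons and the genotype markers (at least 5 CPM in each day 0 and day 1 library of a genotype, at most 1 CPM in the sister genotype) were chosen with earlier results of these data known. Alternatives covered RLE factors, DESeq2 1.42.0, no filter, a 2-fold minimum, a replicate block, the no-feature share, thinning, other sets of libraries and each library left out.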

Additional observations from a re-analysis of the deposited data

Results flagged for a closer look

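The change from day 0 to the last day differed between wild and cultivated buds in 3865 genes by the interaction term in edgeR. Vitvi06g01144 is among them, with a change that was 1.70 more positive in wild buds on the log2 scale. Vitvi03g00352 passed this term with an edgeR adjusted p of 0.0306, but its day 0 level was at or under the floor in both classes, and it did not pass within last-day libraries of either no-feature class (edgeR adjusted p = 0.114 and 0.0691). It was also lost after thinning and without any 1 of 3 day 0 libraries, V. amurensis replicate 2, V. riparia replicate 1 and Cabernet Sauvignon replicate 3 (6 of 34 alternatives in all, edgeR adjusted p from 0.055 to 0.9999 in those).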

How the results depend on the processing

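RLE factors, DESeq2, no filter, the no-feature covariate and all day 0 replicates left each count within 1.5 times its value. So did the 12 last-day and the 12 day 0 libraries fitted alone. DESeq2 kept 4564 of the 4669 last-day calls. With the replicate block there were 4910 last-day, 6543 day 0 and 4063 change differences, and with the block and the covariate 5021, 6720 and 4225. On day 9 the block gave 8837 genes in place of 5415, over all genes fitted there. On the other days it moved no count by over 1.5 times and changed no call of a named gene.

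Last-day libraries of at most 25% no-feature share (5 libraries, with 1 each of V. riparia, Cabernet Sauvignon and Riesling) gave 1189 last-day and 1594 change differences, 84 genes called in all 4 pairs, 554 also at day 0, 526 of them standing, 161 arising and 91 opposite at day 0. Those above 25% (7 libraries, with 1 of V. amurensis) gave 1513, 2145, 96, 662, 625, 194 and 103 in the same order. The counts over pairs set single libraries against each other in these sets and borrow the spread of the other groups. Thinned to the smallest total, the counts were 2271 and 2285, with 4174 at day 0, then 225, 625, 572, 386 and 194. With at least a 2-fold difference 2927 last-day and 4033 day 0 differences were left, and all 4 pairs left 635.

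Leaving out 1 library at a time gave 3553 to 5355 last-day, 5379 to 6736 day 0 and 3152 to 4445 change differences. Arising genes ran from 517 to 1040 and reversals from 281 to 608, both lowest without V. riparia day 12 replicate 1. The differences in library measures between classes changed sign for total counts (-972161 to 2936630), no-feature share (-4.27 to 1.42 percentage points), top 10 share (-0.83 to 0.49 percentage points) and genes detected (-111.9 to 167.3), and none passed. The split, thinned and leave-one-out sets have fewer libraries or counts by construction, and why counts moved in them was not tested.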
